A study of Homo sapiens with 9 samples.

Results

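RNA-seq libraries of 293T cells that received NRF1 or E2F4 were set against those that received RORA or TFCP2, 4 of the 9 libraries of the series. NRF1 and E2F4 were selected on their class, TFs (transcription factors) that bind CpG-rich promoters, and RORA and TFCP2 were selected on measured values, as the 2 TFs with the fewest genes changed against the control library. 293T is a human embryonic kidney line that carries the SV40 large T antigen. Per the labels and the methods, the open reading frame of 1 TF was placed behind the EF1A promoter in a lentiviral expression plasmid that also carries EGFP, the plasmid was transfected, and total RNA was sequenced. Each TF had 1 library, so NRF1 and E2F4 served as the 2 replicates of one side and RORA and TFCP2 as the 2 replicates of the other. The spread within a side is therefore the spread between 2 different TFs, and it also holds whatever differs between single transfections and libraries. The control library, labelled blank, and the rows of the 4 inserted TFs did not enter the comparison. No selection of transfected cells is described, so a level is an average over all cells of a culture.

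NRF1 (nuclear respiratory factor 1) is a homodimer that binds a palindromic GC-rich element and is known for driving nuclear genes of mitochondrial function. E2F4 acts with a DP partner and the pocket proteins RB, p107 and p130, and is known mainly as a repressor of cell cycle genes in resting cells. RORA is an orphan-type nuclear receptor that binds a hexamer with an AT-rich flank and activates genes of the circadian clock. TFCP2 belongs to the grainyhead family of TFs.

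The 4 libraries held 14706961 (NRF1), 18050824 (E2F4), 17016549 (RORA) and 17746740 (TFCP2) counts. The inserted TF was far higher in its own library than in the others. NRF1 reached 2562 CPM (counts per 1000000, scaled by TMM, the trimmed mean of M values) against at most 31.7 CPM elsewhere, and E2F4 3905 against at most 77.7 CPM. RORA reached 9113 CPM against 65.2 CPM in the HOXA11 library and at most 16.5 CPM in the other 7. TFCP2 reached 15141 CPM against 533 CPM in the control library and at most 45.9 CPM in the other 7. At least 1 count was found for 26166 genes in the NRF1 library and for 23712 (E2F4), 23534 (RORA) and 23577 (TFCP2) genes in the other 3, although the NRF1 library was the shallowest of the 4. The part of this difference in the results was not tested. The 14 marker genes of 293T cells were all measured, and their summed level lay between 2000 and 2336 CPM in the 4 libraries. Of the markers of leukocytes, keratinized or other epithelia and fibroblasts, 2 of 14, 4 of 15 and 7 of 12 were high enough to test, and none of these was called or separated. Of the same lists 2, 3 and 3 genes had no count in the 4 libraries.

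Against the control library, 1260 genes changed at least 2-fold with NRF1, 557 with E2F4, 126 with RORA and 94 with TFCP2, at a level of at least 1 CPM in the higher library. These counts chose RORA and TFCP2 and are given as a description. Both libraries thus lie near 1 shared control, which can make the spread within their side, and so the p-values of the test, too small. The next TF by this count was HOXA11 with 210 genes, which was left out of the comparison side.

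Genes that differed between the 2 sides were nearly all higher with NRF1 and E2F4. Of 15299 genes tested, 26 rose at an adjusted p below 0.05 by edgeR's quasi-likelihood test, which is 0.170% of the genes, and 0 fell (0%). At an unadjusted p below 0.05, 1138 genes were higher and 181 were lower. A wider group needs no test. It holds the genes whose levels in both libraries of one side lay beyond both of the other, with a fitted fold of at least 2 and a mean of at least 1 CPM on the higher side, called separated here. It held 497 genes higher with NRF1 and E2F4 (3.25%) and 8 genes lower (0.0523%). All 26 called genes were separated.

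**Figure D1:**
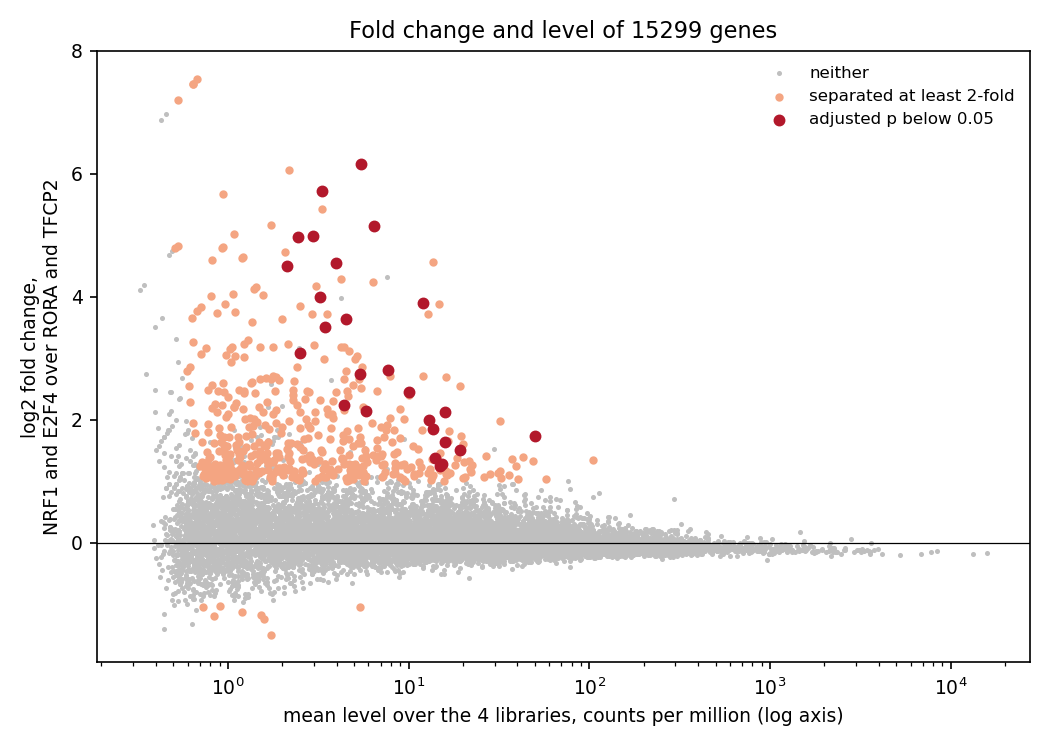
Log2 fold change of NRF1 and E2F4 over RORA and TFCP2 (vertical axis) against the mean level over the 4 libraries in CPM (log axis), 1 point for each of 15299 genes. The 26 called genes (dark red) and nearly all separated genes (orange) lie above 0, and 8 separated genes lie below it.

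The call depends on few libraries and on the tool. Without the RORA library or without the TFCP2 library no gene passed the threshold in either direction, with 637 and 572 genes higher at an unadjusted p below 0.05. Without the NRF1 library 1334 genes rose and 75 fell, and without the E2F4 library 1818 rose and 966 fell. DESeq2 called 180 genes higher and 0 lower (801 and 72 at an unadjusted p below 0.05), and limma-voom called 0 in both directions (957 and 164). All 26 genes were higher with NRF1 and E2F4 in each of these fits. This was fixed in advance, since all 26 were separated and these fits use the same libraries.

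Most separated genes had low levels. At a mean of 1 to 10 CPM over the 4 libraries 331 of 4132 genes were separated upwards (8.01%), at 10 to 100 CPM 69 of 7999 (0.863%), and above 100 CPM 1 of 1936. That gene was RIMS4, a protein of the presynaptic active zone, named after its values were seen. It had 957 counts in the NRF1 library, 4276 in the E2F4, 1000 in the RORA and 1033 in the TFCP2 library. The levels were 60.3, 239, 60.4 and 59.1 CPM in the same order, so only the E2F4 library was clearly higher. RIMS4 was separated by the scaling of the 4 compared libraries. On the printed scale over all 9 libraries NRF1 lay just below RORA. The 26 called genes comprised 25 protein-coding genes and 1 gene without a symbol, ENSG00000278996, on the unplaced scaffold GL000220.1. Their log2 fold changes were between 1.26 and 6.15, with standard errors of 0.14 to 0.77 and adjusted p of 0.0257 to 0.0498. On the side of RORA and TFCP2 11 of them had a mean below 1 CPM.

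Receptors of neurotransmitters and neuropeptides were among the called genes. HRH3 (chr20:60790026-60795323, GRCh37), the histamine H3 receptor, stood at 8.20 CPM with NRF1, 17 CPM with E2F4, 0.302 CPM with RORA and 0.401 CPM with TFCP2. Its log2 fold change was 5.16 ± 0.48 (SE, adjusted p = 0.0257). NTSR1 (chr20:61340189-61394123), the high-affinity neurotensin receptor, stood at 4.60, 8.40, 0.0604 and 0.172 CPM in the same order of libraries. For both receptors the 2 sides were far apart and the E2F4 library was the higher of its pair. NTSR1 rose by 5.73 ± 0.56 on the log2 scale (adjusted p = 0.0264), from only 4 counts over the 2 libraries of RORA and TFCP2. GABBR2 (chr9:101050364-101471479), the subunit of the GABA-B receptor that couples to G proteins, was already present without NRF1 or E2F4. Its levels were 22.6 and 25.6 CPM with NRF1 and E2F4 against 7.31 and 8.47 CPM with RORA and TFCP2, a log2 fold change of 1.64 ± 0.15 (adjusted p = 0.0257).

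Some called genes encode secreted signals and their regulators. WNT7A (chr3:13857755-13921618), a WNT ligand, stood at 4.54 and 4.93 CPM with NRF1 and E2F4 and at 0.0604 and 0.229 CPM with RORA and TFCP2. WNT2 (chr7:116916685-116963343), another WNT ligand, stood at 3.72 and 4.42 CPM against 0.242 and 0.114 CPM. NOTUM, named to complete the set of called genes, is an extracellular deacylase that inactivates WNT ligands and stood at 19 and 32.5 CPM against 6.77 and 5.21 CPM. The log2 fold changes of the 3 genes were 4.97 ± 0.50, 4.50 ± 0.46 and 2.13 ± 0.27, and NOTUM lay just inside the threshold (adjusted p = 0.0498). CHRDL2 (chr11:74407474-74442430), a secreted antagonist of BMP ligands, stood at 6.49 and 4.93 CPM against 0.242 and 0.114 CPM. Its log2 fold change was 4.98 ± 0.45 (adjusted p = 0.0257). None of these 4 genes had overlapping levels between the sides, which was fixed by their choice, since every called gene was separated.

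Other called genes encode structural, adhesion and extracellular proteins. COL15A1 (chr9:101705461-101833074), a collagen of basement membranes, had the largest log2 fold change of the called genes, 6.15 ± 0.77 (adjusted p = 0.0469). Its levels were 16.4 CPM with NRF1, 5.21 CPM with E2F4, 0.181 CPM with RORA and 0.114 CPM with TFCP2. ESAM (chr11:124622479-124632186), an adhesion molecule of endothelial cells and platelets, stood at 16.6 and 28.4 CPM with NRF1 and E2F4 against 1.75 and 1.32 CPM, a log2 fold change of 3.90 ± 0.32. ADAMTS8 (chr11:130274820-130298888), a secreted metalloproteinase, had the smallest p of all genes. It stood at 13.7 and 13.1 CPM with NRF1 and E2F4 and at 2.18 and 1.72 CPM with RORA and TFCP2, a log2 fold change of 2.81 ± 0.22 (adjusted p = 0.0257). TCHH (chr1:152078793-152087930), the trichohyalin of hair follicles, stood at 9.33 and 5.93 CPM against 0.423 and 0.229 CPM, a log2 fold change of 4.55 ± 0.43.

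PAX5 (chr9:36833272-37034182), the TF that commits progenitors to the B cell lineage, was the 1 DNA-binding TF of the set. It stood at 8.01 CPM with NRF1, 4.20 CPM with E2F4, 0.302 CPM with RORA and 0.458 CPM with TFCP2, a log2 fold change of 4.0 ± 0.48 (adjusted p = 0.0404). CABP7 (chr22:30116073-30127828), a calcium-binding protein of the calmodulin type, stood at 10.2 and 6.49 CPM against 0.544 and 0.801 CPM, a log2 fold change of 3.64 ± 0.37. PRRT4 (chr7:127990379-128001739), a proline-rich transmembrane protein, had a smaller and very even difference. Its levels were 30.7 and 26.3 CPM against 10.5 and 9.85 CPM, a log2 fold change of 1.51 ± 0.14 (adjusted p = 0.0257).

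The other called genes with a symbol are given to complete the set. SPHK1, a kinase that makes sphingosine-1-phosphate, stood at 59.2 and 94.7 CPM with NRF1 and E2F4 and at 24.8 and 22.4 CPM with RORA and TFCP2. SPNS2, a transporter that exports the same lipid, stood at 8.07 and 10.8 CPM against 2.18 CPM in both libraries of the other side. ALDH1A3, an enzyme of retinoic acid synthesis, stood at 19.9 and 20.7 CPM against 8.28 and 7.56 CPM. The log2 fold changes of these 3 genes were 1.73 ± 0.21, 2.14 ± 0.25 and 1.38 ± 0.14. SRRM3 (log2 fold change 1.26), which controls neuronal microexon splicing, UNC5A (1.86), a netrin receptor, NECAB2 (2.45), a neuronal calcium-binding protein, and LGI3 (2.74), a secreted leucine-rich protein, are genes best known from neurons. The remaining genes were SUSD4 (2.0), an inhibitor of complement, CPNE5 (3.09), a copine that binds membranes in the presence of calcium, and the potassium channels KCNK12 and KCNK13 described below.

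**Figure D2:**
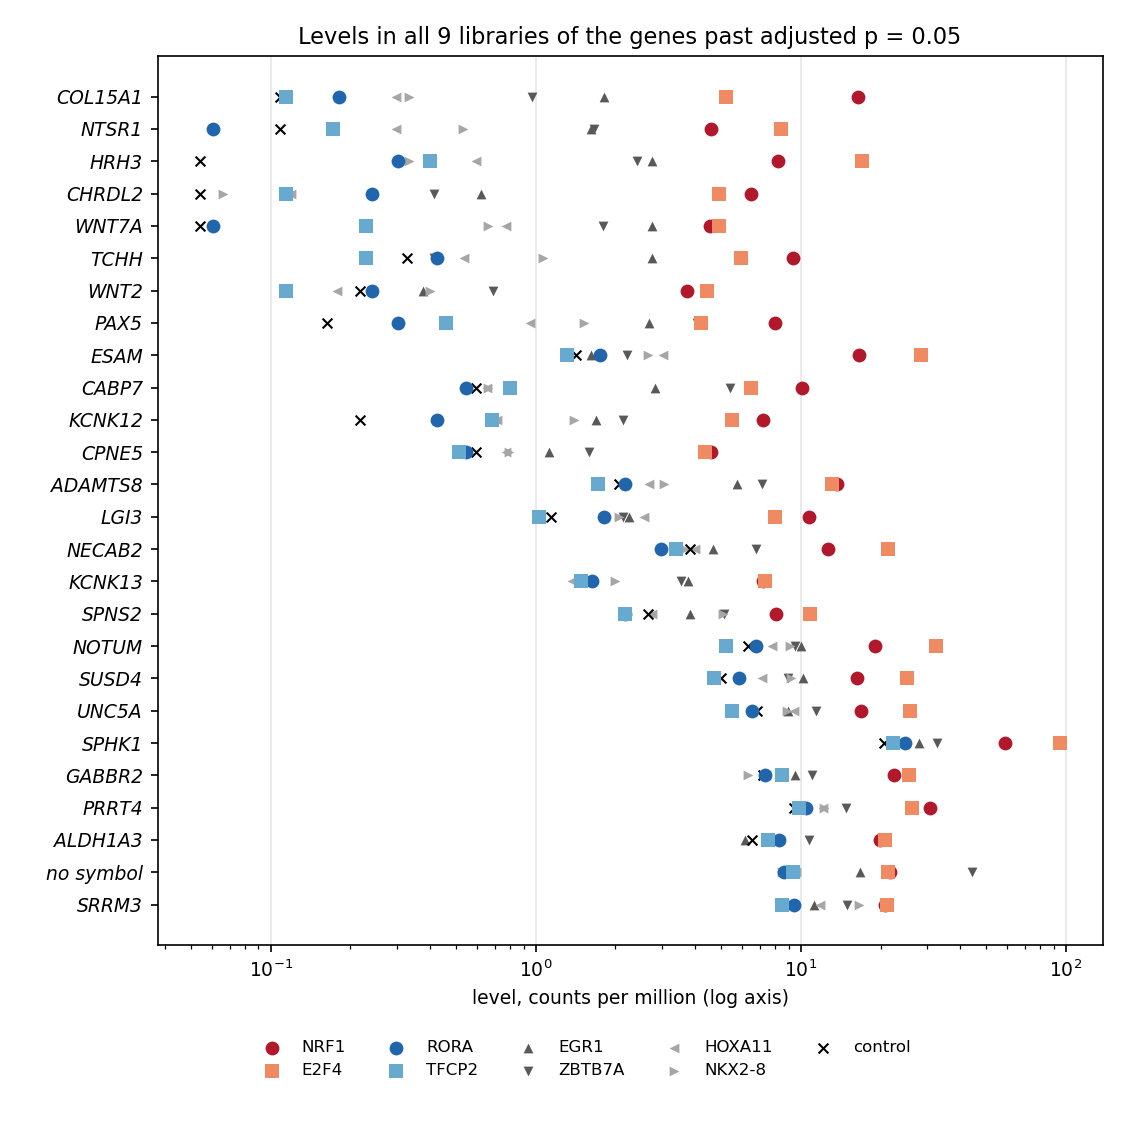
Levels in CPM (horizontal log axis) of the 26 called genes in all 9 libraries, ordered by log2 fold change, with 1 symbol for each library. In every gene the NRF1 (dark red circles) and E2F4 (orange squares) libraries lie to the right of RORA (dark blue circles) and TFCP2 (light blue squares). Every called gene was separated, so this order was fixed by the choice of genes. Triangles give the 4 TF libraries outside the comparison and crosses the control.

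The levels with NRF1 and with E2F4 were not always alike. Counting error alone, given by 95% exact conditional binomial intervals for the ratio of 2 libraries, left 11 of the 26 genes indistinguishable between them. In 6 genes the NRF1 library was higher and in 9 the E2F4 library. The ratio of NRF1 to E2F4 was 3.15 for COL15A1 (interval 2.48 to 4.04) and 1.91 for PAX5 (1.42 to 2.57). It was 0.482 for HRH3 (0.389 to 0.593), 0.583 for ESAM (0.501 to 0.678) and 1.05 for ADAMTS8 (0.869 to 1.27). The test favours genes with a small gap between NRF1 and E2F4, so a count over the called genes describes that choice. Over the 497 genes separated upwards, 133 were at least 2-fold higher with NRF1 than with E2F4, 109 at least 2-fold higher with E2F4, and 255 lay within 2-fold. Between RORA and TFCP2, 426 of the 497 lay within 2-fold. Both were chosen for few 2-fold changes against 1 shared control library, so their likeness follows in part from that choice.

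The promoters of the called genes were rich in GC and CpG. A window of 250 bases before to 50 bases after the gene start was read from GRCh37 for 15293 of the tested genes, at the start of the GENCODE canonical transcript for 14663 of them and at the start given in the deposited table for the other 630. The median GC content was 76.0% in the 25 called genes with a symbol, 72.7% in the 496 separated upwards and 66.3% in all tested genes. Windows of at least 70% GC made up 76.0%, 59.1% and 37.2% of these groups. The share of CpG-rich windows, with a ratio of observed to expected CpG of at least 0.6, was 96.0% (24 of 25), 84.1% and 84.4%. The separated genes and all genes thus differed in GC content and had nearly the same share of CpG-rich windows. By GC content, 8.50% of the 871 genes with windows of at least 80% GC were separated upwards, 4.55% of 4817 at 70 to 80%, 2.13% of 5644 at 60 to 70%, 1.56% of 2814 at 50 to 60%, and 3.40% of 1147 below 50%. Among protein-coding genes of 1 to 10 CPM alone, the median was 72.7% GC in those separated and 66.0% in all.

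The 200 bases before the start are shown for the receptors HRH3 and NTSR1, which have some of the strongest fold changes, and for TCHH, the called gene whose window had a CpG ratio below 0.6, with each CpG in capitals. HRH3 lies on the minus strand (chr20:60795335-60795534), NTSR1 on the plus strand (chr20:61339988-61340187) and TCHH on the minus strand (chr1:152087921-152088120). All 3 are written from 5′ to 3′ along the gene.
HRH3: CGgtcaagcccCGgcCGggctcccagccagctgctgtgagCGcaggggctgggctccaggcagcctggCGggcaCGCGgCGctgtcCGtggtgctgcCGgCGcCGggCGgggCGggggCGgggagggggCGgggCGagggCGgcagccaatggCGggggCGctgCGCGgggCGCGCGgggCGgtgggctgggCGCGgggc
NTSR1: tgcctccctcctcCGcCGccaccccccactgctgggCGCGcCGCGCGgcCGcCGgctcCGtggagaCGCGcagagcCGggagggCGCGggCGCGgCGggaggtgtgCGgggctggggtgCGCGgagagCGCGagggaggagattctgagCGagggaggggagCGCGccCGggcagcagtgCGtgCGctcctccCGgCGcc
TCHH: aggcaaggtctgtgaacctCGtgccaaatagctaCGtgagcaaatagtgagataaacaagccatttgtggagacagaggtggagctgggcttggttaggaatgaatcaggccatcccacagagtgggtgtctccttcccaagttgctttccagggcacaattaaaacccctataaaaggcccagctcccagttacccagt
The stretches hold 28 (HRH3), 31 (NTSR1) and 2 (TCHH) CpG dinucleotides, and their GC contents are 84.5%, 80.5% and 50%.

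Motifs of NRF1, E2F and RORA were searched in the same windows, and none was searched for TFCP2. The motifs were searched as exact letters on both strands, as CGCATGCG (NRF1 core), TGCGCA (NRF1 half-site, a palindrome), TTTCCCGC, TTTGGCGC, TTTCGCGC and TTTGCCGC (E2F) and TAGGTCA (RORA). No motif contains another. The NRF1 core was in 3.83% of all windows (586 of 15293), in 0 of 25 called genes and in 2 of 496 separated upwards (0.403%), both lncRNAs, FAM182B and 1 without a symbol, named after their values were seen. None of the 387 separated protein-coding genes had it, against 3.89% of all tested protein-coding genes. At 1 to 10 CPM, where most separated genes lie, 2.16% of all protein-coding genes had it. The half-site was in 13.3% of all windows, 8.00% of the called and 7.66% of the separated genes. An E2F motif was in 5.06%, 8.00% and 4.84%, and the RORA motif in 1.09%, 0% and 0.605%. These are letter matches in a short window and say nothing of binding.

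The stretch before the start of COL15A1 is shown since it holds a match, in capitals, for the NRF1 half-site. COL15A1 lies on the plus strand (chr9:101705989-101706188), its match begins 83 bases before the canonical start, and the deposited gene model begins further upstream.
COL15A1: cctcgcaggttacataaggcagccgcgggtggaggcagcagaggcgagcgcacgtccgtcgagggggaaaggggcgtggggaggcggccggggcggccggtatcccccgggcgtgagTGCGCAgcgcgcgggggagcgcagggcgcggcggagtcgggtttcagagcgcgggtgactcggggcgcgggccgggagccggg
The other called genes with a match were CHRDL2 and KCNK13 for an E2F motif and ALDH1A3 for the NRF1 half-site.

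**Figure D3:**
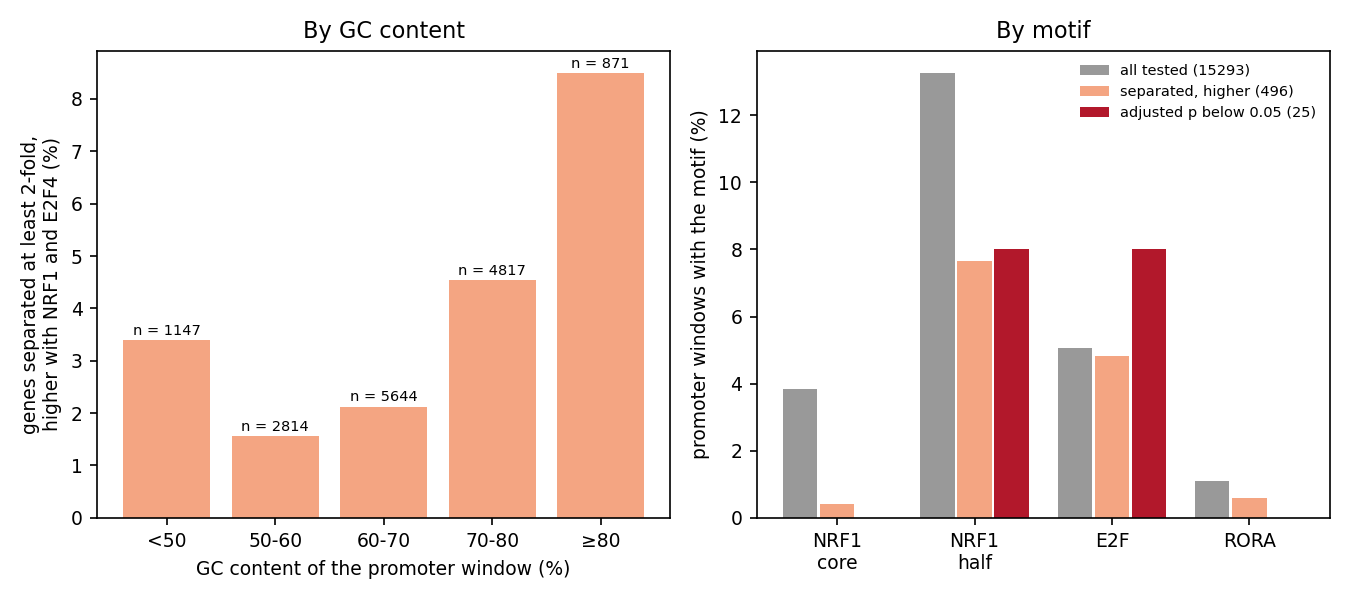
Left, the percentage of genes separated upwards by GC content of the promoter window, with the number of genes above each bar. Right, the percentage of windows with each motif in all tested, separated and called genes. Separation was most frequent at the highest GC content, and the NRF1 core was rarer in separated genes (0.403%) than in all genes (3.83%).

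K2P channels, the two-pore-domain family of potassium channels that set the resting membrane potential, were the gene list with the largest median. All 9 members tested of 15 had a positive log2 fold change, 2 were called and 7 were separated upwards, with a median log2 fold change of 2.24 against 0.01 over all tested genes. The background of the comparison is 0.170% called and 3.25% separated. Among protein-coding genes 9.53% were separated upwards at 1 to 10 CPM and 9.91% below 1 CPM. KCNK10 (1 and 1 counts with RORA and TFCP2), KCNK3 (3 and 0), KCNK9 (6 and 6) and KCNK2 (6 and 5) passed the filter for tested genes only through NRF1 and E2F4. A positive value was fixed for them. KCNK12 (7 and 12) and KCNK15 (10 and 4) also needed NRF1 or E2F4 to pass, which favoured a positive value. The same holds for members of the lists below that were nearly absent with RORA and TFCP2. The numbers of positive, separated and called members and the medians of these lists follow in part from this filter. KCNK12 stood at 7.19 CPM with NRF1, 5.49 CPM with E2F4, 0.423 CPM with RORA and 0.687 CPM with TFCP2 (log2 fold change 3.52 ± 0.37, adjusted p = 0.0264). KCNK13 stood at 7.19, 7.33, 1.63 and 1.49 CPM in the same order (2.24 ± 0.25, adjusted p = 0.0325). KCNK10 and KCNK3 had larger folds that did not pass. KCNK10 had 150 counts with NRF1 and E2F4 together and 2 with RORA and TFCP2, a ratio of 75.7 (95% interval 20.6 to 631, counting error only) and an adjusted p of 0.0615. KCNK3 had 50 and 3 counts, a ratio of 16.8 (5.43 to 84.3) and an adjusted p of 0.253. KCNK5 and KCNK1, the members with the lowest values, had log2 fold changes of 0.61 and 0.43. The levels of all 15 K2P genes summed to 52.0 and 63.3 CPM with NRF1 and E2F4 and to 27.2 and 26.4 CPM with RORA and TFCP2.

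Neuronal G protein-coupled receptors showed the same direction. Of 68 on the list 34 were tested, 33 with a positive log2 fold change, 3 called (HRH3, NTSR1 and GABBR2) and 14 separated upwards, with a median of 1.07. CHRM4, the muscarinic M4 receptor, lay just outside the threshold at 4.60 and 4.70 CPM with NRF1 and E2F4 against 0.967 and 0.744 CPM with RORA and TFCP2. GRM8, a metabotropic glutamate receptor, stood at 2.65 and 2.80 CPM against 0.544 and 0.572 CPM, and CNR1, the cannabinoid receptor of neurons, at 2.21 and 2.41 CPM against 0.544 and 0.229 CPM. These 3 were named after their values were seen. GALR2, a galanin receptor, had a log2 fold change of 3.98 without separation (adjusted p = 0.423). DRD4, a dopamine receptor, was among the lowest of the list (0.01).

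Ionotropic glutamate receptors and their auxiliary subunits had 4 of 12 tested members separated and none called, with a median of 0.55. GRIK3, a kainate receptor subunit, stood at 3.28, 9.68, 0.0604 and 0.229 CPM (log2 fold change 5.42 ± 0.76, adjusted p = 0.0615), and GSG1L, an AMPA receptor auxiliary protein, had a log2 fold change of 3.22 ± 0.52 (adjusted p = 0.0852). The wider list of neuronal genes had 12 of 56 separated and none called, with a median of 0.42 and a positive value in 47. NEFH, the heavy neurofilament subunit, stood at 6.49 CPM with NRF1, 1.51 CPM with E2F4, 0.0604 CPM with RORA and 0.229 CPM with TFCP2 (4.73 ± 0.93, adjusted p = 0.144). Genes of the same list with values near or below 0 included STMN2 (-0.69) and CELF3 (-0.65).

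Multiciliated cell genes had 7 of 27 tested members separated and none called, with a median of 0.18. Most of these were higher with E2F4 than with NRF1. CDC20B, which takes part in centriole amplification, stood at 0.946 CPM with NRF1 and 15.2 CPM with E2F4, against 0.423 CPM with RORA and 0.401 CPM with TFCP2. MCIDAS, a coregulator that acts with E2F4 in multiciliated cells, stood at 5.42 and 14.2 CPM against 4.11 and 3.38 CPM. TP73, a TF of the same programme, stood at 23.3 and 63.8 CPM against 22.2 and 20.7 CPM. In TP73 the NRF1 library barely exceeded the RORA library. MCIDAS and TP73 were named after their values were seen. Collagens had 1 of 28 members called and separated, COL15A1, with a median of 0.18. The next members were COL4A3 and COL4A4, chains of basement membrane collagen, with log2 fold changes of 0.96 and 0.76, and the lowest were COL6A1 (-0.17) and COL4A6 (-0.27). The list of lecticans, link proteins and hyaluronan genes had 2 of 8 tested members separated and none called. They were ACAN (2.66 ± 0.53, adjusted p = 0.147), the core protein of aggrecan, a lectican, and HAS3 (2.51 ± 0.56, adjusted p = 0.189), a hyaluronan synthase.

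The pathways for which NRF1 and E2F4 are best known showed no called or separated gene. Separation needs NRF1 and E2F4 to differ from the other side together, and a gap between them weighs against a call. A gene changed with NRF1 alone or with E2F4 alone is therefore mostly missed by both measures. Of the 40 E2F targets of DNA replication the log2 fold changes were between -0.22 and 0.17, with a median of -0.06, and of 38 mitosis genes between -0.18 and 0.22, with a median of -0.05. Nuclear subunits of oxidative phosphorylation had a median of -0.06 over 75 genes, mitochondrial transcription and import genes 0.01 over 32, and the 13 mitochondrially encoded genes -0.11. The mitochondrially encoded genes summed to 32951 CPM with NRF1, 43701 CPM with E2F4, 44506 CPM with RORA and 41812 CPM with TFCP2. GABPB1, a subunit of nuclear respiratory factor 2, had the highest value of the import and transcription list (0.37, adjusted p = 0.417). NDUFV2, a subunit of complex I, had that of oxidative phosphorylation (1.99, adjusted p = 0.312). It stood at 0.757 CPM with NRF1, 0.896 CPM with E2F4, 0.242 CPM with RORA and 0.172 CPM with TFCP2. These levels do not overlap, and NDUFV2 missed separation because the mean of its higher side was below 1 CPM. The 31 proteasome genes had a median of -0.04. In the list of E2F family members and G1/S regulators none of 33 was called or separated. CCND3, CCNE1 and E2F7 had the highest values (1.01, 0.95 and 0.86, adjusted p = 0.547, 0.333 and 0.669). CCND3 stood at 53.1 CPM with NRF1, 151 CPM with E2F4, 55.2 CPM with RORA and 48.1 CPM with TFCP2. In the same order CCNE1 stood at 33.2, 66.2, 25.6 and 26.8 CPM and E2F7 at 31.2, 107, 39.1 and 38.5 CPM. The E2F4 library was the highest in each, and in CCND3 and E2F7 the NRF1 library was not above RORA. None of the genes linked to RORA and TFCP2 was called. The 21 circadian and ROR target genes had no separated member and a median of 0.06, with PER2 at 0.70 and BMAL1 at -0.49, and of 9 grainyhead family members and TFCP2 targets 1 was separated, GRHL1 (1.27 ± 0.30, adjusted p = 0.214). The 75 genes of cytoplasmic ribosomal proteins had a median of -0.10 and 1 separated member.

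**Figure D4:**
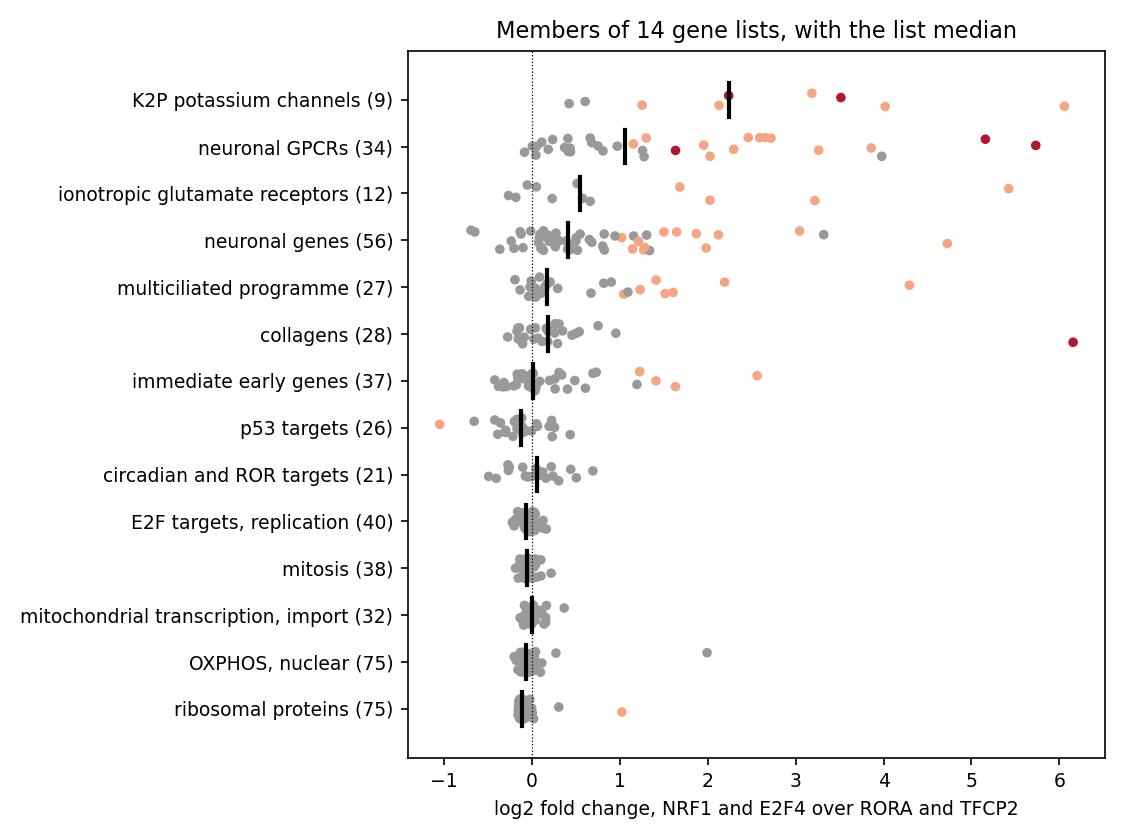
Log2 fold changes of the tested members of 14 gene lists (number of members in parentheses), with called members in dark red, separated members in orange, others in grey and the list median as a black bar. Potassium channels and neuronal receptors extend to the right, with medians of 2.24 and 1.07, and the cell cycle, mitochondrial and ribosomal lists stay near 0. Members that passed the filter only through NRF1 and E2F4 add to the 2 high medians.

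Immediate early genes, p53 targets and stress genes were near 0 in their medians (0.02, -0.12 and, for the unfolded protein response, -0.02). Of 37 immediate early genes 4 were separated upwards, EGR4 (2.56), DUSP2 (1.63), DUSP6 (1.41) and DUSP4 (1.23), of which the last was named after its value was seen. The DUSP genes encode phosphatases that switch off MAP kinases. None was called, with adjusted p of 0.206, 0.470 and 0.459 for the first 3.

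lncRNAs tended to be higher with NRF1 and E2F4, and none was called. Of 2091 lncRNAs tested 105 were separated upwards (5.02%) and 6 downwards, and 64.6% had a positive log2 fold change, with a median of 0.13. The values for 13099 protein-coding genes were 387 upwards (2.95%), 2 downwards, 50.7% and 0.00. lncRNAs were mostly of low level. At 1 to 10 CPM 54 of 1202 lncRNAs (4.49%) and 273 of 2864 protein-coding genes (9.53%) were separated upwards, so that at matched levels the share was lower in lncRNAs. The lncRNAs conserved between human and mouse, 295 of 1731 of which were tested, had 27 separated upwards (9.15%) and 2 downwards, with a median of 0.17, and at 1 to 10 CPM 17 of 181 (9.39%). Whether the counting used strand is not stated, so an antisense or divergent lncRNA cannot be told apart from its overlapping neighbour.

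PRDM16-DT, a conserved lncRNA divergent to PRDM16, was the separated lncRNA with the smallest p. It stood at 7.57 and 6.77 CPM with NRF1 and E2F4 and at 2.78 and 3.21 CPM with RORA and TFCP2 (log2 fold change 1.28 ± 0.23, adjusted p = 0.118). LINC02798 stood at 1.32 and 2.74 CPM against 0.242 and 0.0572 CPM (3.75 ± 0.69, adjusted p = 0.125). ADGRA1-AS1 had 60 counts against 1, a ratio of 60.5 (95% interval 10.5 to 2430, counting error only), and an adjusted p of 0.162. Its overlapping gene ADGRA1, an adhesion receptor of the neuronal receptor list, was also separated, at 6.68 and 2.74 CPM against 0.302 and 0.343 CPM.

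The genes lower with NRF1 and E2F4 were few and none passed the threshold. GDF15, a stress-induced cytokine and p53 target, stood at 3.09 CPM with NRF1, 3.86 CPM with E2F4, 6.16 CPM with RORA and 8.47 CPM with TFCP2 (log2 fold change -1.05 ± 0.26, adjusted p = 0.242). In the other libraries its level was between 2.94 CPM (control) and 16 CPM (EGR1), so both sides lay within the range of the rest. NHLH2, a TF of neurons, stood at 0.946, 0.896, 3.02 and 1.26 CPM (-1.18 ± 0.50, adjusted p = 0.576). In the other libraries NHLH2 was between 0.217 CPM (control) and 1.99 CPM (NKX2-8), so NRF1 and E2F4 lay within that range and RORA above it. RMRP, the RNA of the mitochondrial RNA processing endoribonuclease, stood at 1.01, 0.784, 1.87 and 3.26 CPM (-1.49 ± 0.43, adjusted p = 0.317). It was at 1.12 CPM with EGR1, 1.11 CPM with ZBTB7A, 1.19 CPM with HOXA11 and 1.26 CPM with NKX2-8, near NRF1 and E2F4. The control stood at 4.02 CPM, so a low RMRP level was not particular to NRF1 and E2F4. LINC02846 and RP11-817O13.8, both lncRNAs, had log2 fold changes of -1.24 and -1.18 at adjusted p of 0.440 and 0.496. The promoters of the 8 genes lower with NRF1 and E2F4 had a median GC content of 58.2%, below that of all tested genes.

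A second pair of sides that shares no library with the first asked whether the same genes differ between other TFs. EGR1 and ZBTB7A, which also bind GC-rich promoters, were set against HOXA11 and NKX2-8. Of 15046 genes tested in this pair 0 were called in either direction (0%) by edgeR's quasi-likelihood test, with 596 higher and 738 lower at an unadjusted p below 0.05, and DESeq2 called 3 higher and 6 lower. The quasi-likelihood test called 13 genes without EGR1, 78 without ZBTB7A, 148 without HOXA11 and 5 without NKX2-8, an alternative chosen after seeing the data. In this pair 109 genes were separated upwards (0.724%) and 71 downwards (0.472%), so the excess of higher genes seen with NRF1 and E2F4 was far smaller here. Of the 26 called genes 24 were tested in the second pair, 21 with a positive log2 fold change (87.5%) and 9 separated upwards, with a median log2 fold change of 0.69. Of the 497 separated upwards 419 were tested, 315 with a positive value (75.2%) and 52 separated upwards (12.4%), with a median of 0.25. Over all genes of both fits 51.4% were positive and the median was 0.01. At 1 to 10 CPM 75.8% of the separated genes and 53.2% of all genes were positive.

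CABP7 had the largest value of the called genes in the second pair, at 2.81 CPM with EGR1 and 5.39 CPM with ZBTB7A against 0.654 CPM with HOXA11 and 0.664 CPM with NKX2-8. HRH3 stood at 2.75 and 2.42 CPM against 0.595 and 0.332 CPM, and COL15A1 at 1.81 and 0.967 CPM against 0.297 and 0.332 CPM. In these genes EGR1 and ZBTB7A lay between the levels with NRF1 or E2F4 and those with RORA or TFCP2. ESAM was the exception with the lowest value, at 1.62 and 2.21 CPM with EGR1 and ZBTB7A against 3.03 and 2.65 CPM with HOXA11 and NKX2-8. In 25 of the 26 genes all 4 of these libraries lay below both NRF1 and E2F4. The same was so in 292 of the 497 genes separated upwards and in 1596 of all 15299 genes tested. The called genes were chosen for high levels with NRF1 and E2F4, so their number follows in part from that choice. The remaining called gene was the one without a symbol, which reached 44.1 CPM with ZBTB7A.

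The other libraries were set against the same genes singly. The level lay above both RORA and TFCP2 in 378 of the 497 genes with ZBTB7A (76.1%), 348 with EGR1 (70.02%), 285 with NKX2-8 (57.3%) and 250 with HOXA11 (50.3%), against 30.9%, 30.5%, 36.7% and 33.3% of all tested genes. The control library differed from these 4, with 156 genes (31.4%) against 33.9% of all. The genes were chosen partly for low levels with RORA and TFCP2, so these shares are descriptions and were not tested. RORA and TFCP2 were themselves chosen for few genes changed against the control library. The low share of the control follows in part from that choice. At least 1 count was found for 26296 genes with EGR1, 24593 with NKX2-8, 23616 with HOXA11, 23564 with ZBTB7A and 23344 in the control, and the part of this in the shares was not tested.

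**Figure D5:**
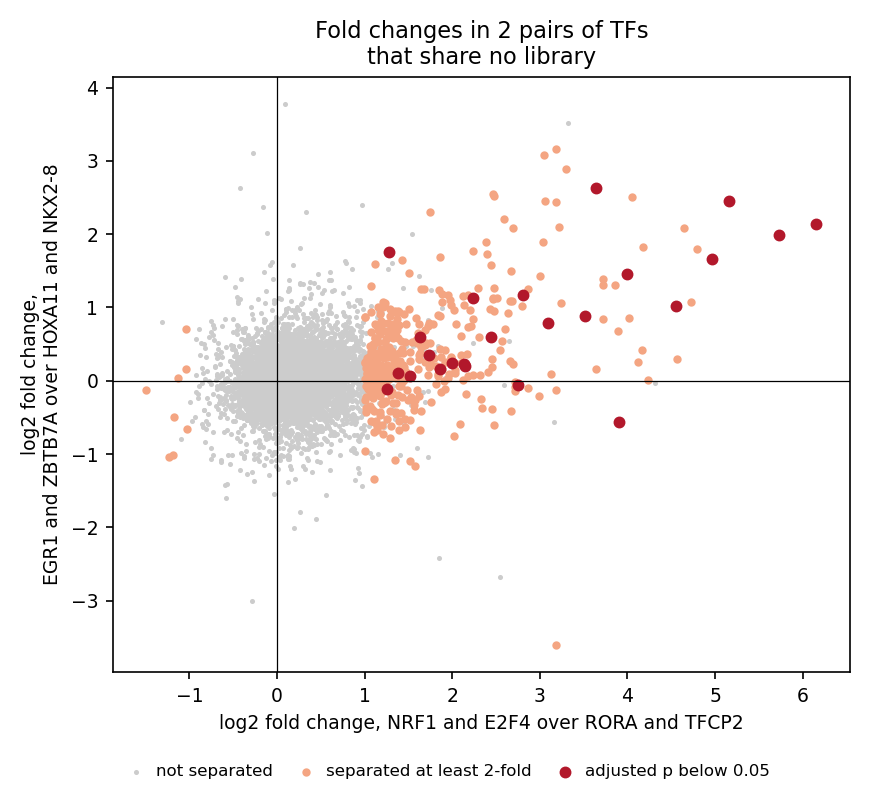
Log2 fold changes of genes tested in both fits, NRF1 and E2F4 over RORA and TFCP2 (horizontal) and EGR1 and ZBTB7A over HOXA11 and NKX2-8 (vertical), with separated genes of the first fit in orange and called genes in dark red. Of the 24 called genes shown 21 lie above 0 on the vertical axis, with ESAM the lowest.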

How the data were processed

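RNA-seq was measured in 9 libraries of 293T cells, of which 4 formed the main comparison and 4 a second pair. According to the submitters' processing notes, reads were checked with FastQC 0.11.2, mapped to GRCh37 with STAR 2.6.0c and assigned to genes with featureCounts 1.6.3. Raw, unnormalized counts were deposited by the authors, 57163 rows in all. Whether counting used strand is not stated, and labels and methods name different RNA extraction reagents. Totals were 14177970 to 18915400 counts per library, so that low genes have wide counting errors. Intervals cover counting error only.

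Symbols and classes came from GENCODE v44lift37, the deposited table and the conserved lncRNA list of the study. Of 1017 names in 31 gene lists 1014 matched. The rows of the inserted TFs were removed, genes were filtered with filterByExpr, scaled by TMM and tested with edgeR 4.0.16 (quasi-likelihood, R 4.3.3) with Benjamini-Hochberg adjustment at 0.05. Standard errors were the absolute log2 fold change divided by the square root of the F statistic. Printed CPM levels use TMM over all 9 libraries, while separation was judged with TMM over the libraries of each fit. Sides, lists and motifs were chosen with earlier results of these data known. Named genes were the 10 with the largest rise and the 8 with the smallest p among called protein-coding genes, lncRNAs and lower genes filled in from the separated genes by p, and for gene lists the highest 3 and lowest 2 members. In simulated counts of 15299 genes the test recovered 22, 30, 47 and 48 of 50 genes changed 1.5-fold, 2-fold, 4-fold and 8-fold, with 2 unchanged genes called. In the measured counts the test called 26 of the 497 genes separated upwards. Whether the recovery above holds when the libraries of a side received different TFs was not tested. Alternatives were DESeq2 1.42.0, limma 3.58.1 (voom), other scalings, filters and sets of libraries, and a window of 500 bases before the start. Some items of the lists and promoters are not reported here.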

Additional observations from a re-analysis of the deposited data

How the results depend on the processing

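The number of genes higher with NRF1 and E2F4 (26) was 24 with library totals and 26 with DESeq2's size factors in place of TMM, and 21 with a filter of 1 CPM in 2 libraries. It was 863 when all genes with at least 1 count were tested, 180 by DESeq2, 0 by limma-voom, 125 with the spread shared over all 8 TF libraries and 308 with HOXA11 and NKX2-8 added to the comparison side. The number of lower genes (0) was 8 with all genes of at least 1 count and 1 with HOXA11 and NKX2-8 added. When single libraries were left out, higher calls ranged from 0 (without RORA or without TFCP2) to 1818 (without E2F4) and lower calls from 0 to 966. The lone library of a side is there assumed to vary like the pair, so these counts rest on the spread of 1 pair. Genes separated upwards ranged from 483 to 1152 and downwards from 25 to 40 when 1 library was left out. In the second pair DESeq2 called 9 genes in all against 0, and leaving out 1 library, chosen after seeing the data, gave 5 to 148. All 26 called genes kept a positive log2 fold change under all 12 alternatives, and 23 of them were among the calls with library totals. Since all 26 were separated, fits of the same libraries could hardly turn the sign, so this is no measure of robustness. Library totals moved the median of all genes from 0.01 to 0.05. The direction turned for named genes near 0 or with 1 high library. DRD4 (0.01) was -0.0079 with all genes of at least 1 count and between -0.34 and 0.47 when 1 library was left out, COL4A3 between -0.19 and 1.6, NCAN between -0.37 and 5.29 and OAS3 between -0.10 and 1.12. With the window of 500 bases the NRF1 core was in 4.02% of all, 0.605% of separated and 0% of called genes. No paired analysis was possible because the labels give no replicate numbers that the sides share. The cause of these changes was not tested.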

Other observations

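Some single genes of stress and innate immune lists were separated upwards without being called, and in each 1 library of the pair was much higher. HSPA6, a heat-inducible chaperone, stood at 13.9 CPM with NRF1, 1.40 CPM with E2F4, 0.362 CPM with RORA and 1.32 CPM with TFCP2 (adjusted p = 0.416). Outside the comparison HSPA6 reached 30.8 CPM with HOXA11 and 6.83 CPM with NKX2-8. It stood at 2.12 CPM with EGR1, 0.898 CPM with ZBTB7A and 0.652 CPM in the control. IRF7, the TF that amplifies interferon signalling, stood at 2.65 and 0.840 CPM against 0.665 and 0.458 CPM, and IFIH1, a sensor of double-stranded RNA, at 2.33 and 1.01 CPM against 0.362 and 0.744 CPM. In both genes the NRF1 library was the higher of its pair, and the medians of the interferon and heat-inducible chaperone lists were 0.09 and -0.01. IGF2-AS, a conserved antisense lncRNA, went the other way, at 0.568 CPM with NRF1 and 11.1 CPM with E2F4 against 0.483 and 0.172 CPM. These genes were named after their values were seen, except HSPA6, IRF7 and IFIH1, which lead their lists.

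Inserted TFs were also found above the common level in single libraries that should not hold them. TFCP2 stood at 533 CPM in the control library and at 36.6 to 45.9 CPM in the 7 others without the insert. RORA stood at 65.2 CPM in the HOXA11 library against 10.6 to 16.5 CPM, ZBTB7A at 80.4 CPM in the E2F4 library against 30.4 to 41.2 CPM, and HOXA11 at 132 CPM in the ZBTB7A library against 48.2 to 67.5 CPM. The levels in the libraries that received these TFs were 15141, 9113, 4757 and 5191 CPM.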
